A study of Mus musculus with 4 samples.

Results

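Transcripts of the MHC class I molecule were followed in sorted mouse retinal cells after an optic nerve injury. The 10 genes described are the heavy chain genes H2-K1, H2-D1, H2-Q4, H2-Q6, H2-Q7, H2-T22, H2-T23 and H2-M3, the light chain gene B2m, and Nlrc5, a regulator of class I transcription. They were taken by gene name from the 56493 genes of the count table. They were chosen by their log2 fold changes between the groups in these same libraries, so that difference is given here as a description, without a test. The cells came from the retinas of wild-type mice and were labelled as retinal ganglion cells. The optic nerve was crushed in all of them, for AAV2-CrAT a month after the vector was injected into the vitreous. The vector was AAV2-CrAT in 2 libraries, for overexpression of carnitine acetyltransferase, and AAV2-MCS in the other 2 (labelled MCS). All 4 libraries therefore carry both a vector and a crush. The titles give all 4 a tag, NCd8, that is not explained. The labels do not give the age of the mice, the promoter of the vectors or whether the 2 replicates came from separate animals, so any spread between replicates may be technical.

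A class I molecule is a heavy chain bound to beta-2 microglobulin, the product of B2m, and to a short peptide made from proteins of the cell itself. Proteasomes cut the peptides, the transporter TAP carries them into the endoplasmic reticulum, and the loaded molecule is shown at the cell surface to CD8 T cells and natural killer cells. Healthy neurons hold little class I, and interferons raise it in most cell types. In the mouse, H2-K1 and H2-D1 encode the classical heavy chains. The H2-Q, H2-T and H2-M genes encode the non-classical ones.

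The 4 libraries held between 24494253 and 27097438 counts. Levels are given as CPM, counts scaled to a common library total, or as the deposited FPKM. FPKM also divides by a length listed for each gene and is the scale used to set genes beside each other. Orders and shares on it depend on those lengths, such as 4265 bases for H2-Q7 and 2085 for H2-Q6. The limit set by 3 counts was 0.111 to 0.122 CPM of the library totals, for counting error only. Crat itself was at 72.5 and 49.9 CPM in the CrAT libraries and at 38.3 and 47.7 CPM in the MCS libraries, a log2 fold change of 0.51 (SE 0.33). Markers of the labelled cell type were low. Ganglion cell markers summed to between 211.8 and 421.3 CPM over 12 genes, against 22430 to 42290 CPM over 8 rod genes. Cone markers summed to 1617 to 2464 CPM and bipolar cell markers to 804.9 to 1351 CPM, over 6 genes each. Isl1 (53.85 to 127.1 CPM) and Tubb3 (59.4 to 144.6 CPM) were the highest of the 12 in every library. Rbpms was at 2.75 to 8.58 CPM. Slc17a6 had 6 to 510 counts per library, Pou4f1 0 to 20 and Pou4f2 0 to 6. In RNA from pooled sorted cells, fewer cells of a type and less RNA per cell cannot be told apart.

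The promoters show what the class I genes share in sequence beyond their levels. RefSeq promoters (GRCm38.p6) were matched by symbol for 9 of the 10 genes, and Nlrc5 had no entry. The 200 bases before the start site are printed for the 7 genes that carry GGGGATTCCC, GTTTCACTTCT or TGACG with a CCAAT box at a fixed distance, and for H2-T23, which carries none of these 3. Capitals mark matches to GGGGATTCCC (a site of the NF-kappaB type), to GTTTCACTTCT, to the interferon-stimulated response element pattern (GAAA, any 2 bases, GAAA), to TGACG (the core of a cAMP response element) and to CCAAT, each on either strand. The stretches lie at chr17:34000348-34000547, minus strand for H2-K1 and at chr17:35262894-35263093, plus strand for H2-D1. That of H2-Q4 lies at chr17:35379417-35379616, plus strand. Those of H2-Q6 and H2-Q7 lie at chr17:35424650-35424849, plus strand, and at chr17:35438955-35439154, plus strand. Those of H2-M3 and H2-T23 lie at chr17:37270034-37270233, plus strand, and at chr17:36032702-36032901, minus strand. That of B2m lies at chr2:122147487-122147686, plus strand.
H2-K1: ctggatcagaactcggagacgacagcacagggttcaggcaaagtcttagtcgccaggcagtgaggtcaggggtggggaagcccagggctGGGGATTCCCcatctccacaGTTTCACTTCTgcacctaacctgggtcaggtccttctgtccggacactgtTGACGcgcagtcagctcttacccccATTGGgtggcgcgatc
H2-D1: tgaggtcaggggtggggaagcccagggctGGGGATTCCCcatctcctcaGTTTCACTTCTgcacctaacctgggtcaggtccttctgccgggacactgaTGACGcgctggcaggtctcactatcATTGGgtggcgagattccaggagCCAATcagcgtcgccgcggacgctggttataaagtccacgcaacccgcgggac
H2-Q4: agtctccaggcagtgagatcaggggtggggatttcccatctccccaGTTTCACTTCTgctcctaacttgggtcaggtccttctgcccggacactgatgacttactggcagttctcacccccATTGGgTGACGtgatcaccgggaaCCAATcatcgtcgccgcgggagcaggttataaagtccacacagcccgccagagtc
H2-Q6: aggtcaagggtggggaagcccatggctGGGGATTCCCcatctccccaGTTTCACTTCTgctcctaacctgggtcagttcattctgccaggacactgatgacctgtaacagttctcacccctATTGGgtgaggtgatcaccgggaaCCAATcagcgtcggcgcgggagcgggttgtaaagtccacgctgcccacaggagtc
H2-Q7: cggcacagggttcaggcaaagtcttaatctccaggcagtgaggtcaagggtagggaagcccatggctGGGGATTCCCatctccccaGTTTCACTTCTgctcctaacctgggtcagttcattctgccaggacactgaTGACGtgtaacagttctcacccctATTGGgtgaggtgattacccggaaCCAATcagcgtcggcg
H2-M3: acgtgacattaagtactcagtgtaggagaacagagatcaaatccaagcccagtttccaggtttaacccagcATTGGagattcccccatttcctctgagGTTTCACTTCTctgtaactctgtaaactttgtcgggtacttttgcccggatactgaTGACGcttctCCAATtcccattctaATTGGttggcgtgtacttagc
H2-T23: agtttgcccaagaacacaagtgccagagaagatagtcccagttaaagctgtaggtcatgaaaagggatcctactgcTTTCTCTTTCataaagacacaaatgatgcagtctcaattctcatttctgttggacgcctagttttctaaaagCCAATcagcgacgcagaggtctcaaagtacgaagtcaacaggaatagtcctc
B2m: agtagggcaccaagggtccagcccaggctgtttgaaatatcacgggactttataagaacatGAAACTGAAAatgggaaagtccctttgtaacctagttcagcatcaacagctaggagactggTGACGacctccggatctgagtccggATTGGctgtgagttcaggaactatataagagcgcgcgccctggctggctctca

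In the classical genes and in H2-Q7 the elements stood in 1 order. GGGGATTCCC came first, at -111 in H2-K1, -171 in H2-D1 and -133 in H2-Q7, counted from the RefSeq start. GTTTCACTTCT followed at -91, -151 and -114, then TGACG at -41, -101 and -64. A CCAAT box on the other strand came next, at -16, -76 and -40. The NF-kappaB run was in 4 of the 9 members' promoters (H2-K1, H2-D1, H2-Q6 and H2-Q7) and in 0.0852% of 32851 mouse promoters before the start. GTTTCACTTCT was in 6 of 9 (the same 4 genes, H2-Q4 and H2-M3) and in 0.0517% of all. TGACG with that inverted box 19 or 20 bases after it was in 5 of 9 (H2-K1, H2-D1, H2-Q7, H2-M3 and B2m) and in 0.128% of all. Related genes share such runs by descent, and these 3 patterns were spelled out after the matches had been seen, so the counts are descriptions. Of the general patterns searched, CCAAT was in 9 of 9 promoters (37.4% of all), TGACG in 7 (20.8%), a loose NF-kappaB pattern (GGG, any 5 bases, CC, of which the 10-base run is 1 form) in 8 (50.8%), the interferon element pattern in 3 (H2-T22, H2-T23 and B2m, 3.44%) and the gamma-activated site pattern (TTC, any 3 bases, GAA) in 1 (H2-M3, 8.30%), over the window from 250 bases before to 50 after the start. The pattern for an interferon element, as spelled, and the 11-base run were never in the same promoter among the 9. The run holds TTTCACTT, with which the H2-T22 match to that pattern (TTTCACTTTC) begins, but falls short of the full pattern. Near matches were not searched for. The search therefore cannot show that promoters with the run lack an interferon element.

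**Figure D1:**
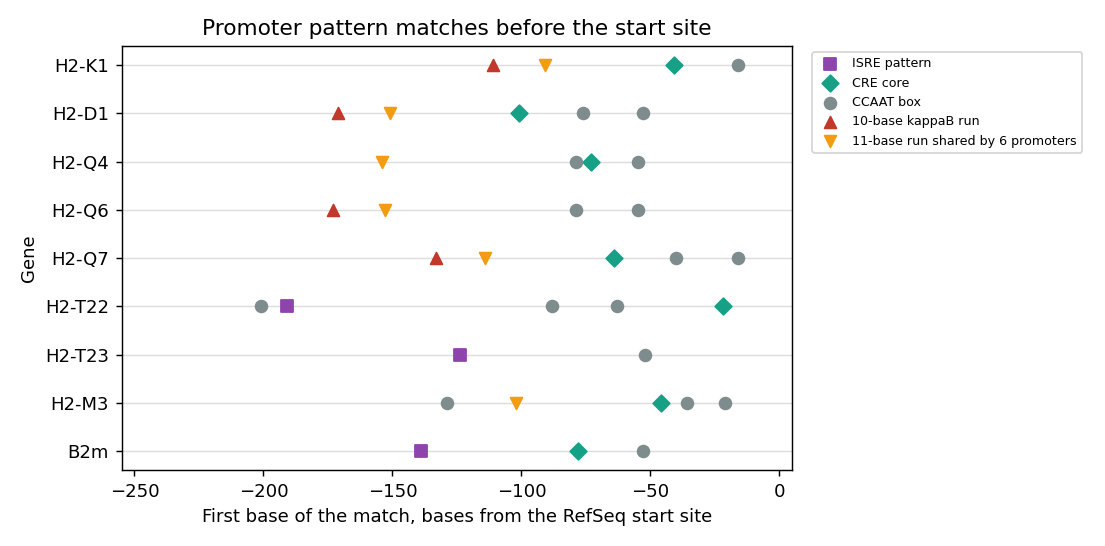
Position of pattern matches in 9 promoters, as the first base of each match counted from the RefSeq start site, 1 line per gene. The NF-kappaB run, the 11-base run, the CRE core and the CCAAT box keep their order in H2-K1, H2-D1 and H2-Q7, while H2-T23 has only an ISRE pattern at -124 and a CCAAT box at -52.

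All 10 genes were higher with CrAT, as were 50.6% of all genes tested, and all 10 were higher in both CrAT libraries than in both MCS libraries. Such a separation occurred in 15.0% of the 19638 genes tested. The log2 fold changes ran from 0.75 to 2.36, with a median of 1.25, while the median of all genes tested was 0.01. A log2 fold change of at least 1 was seen in 7 of the 10 and in 3.87% of all genes. No gene of the whole table passed edgeR's quasi-likelihood test (0% higher and 0% lower at an adjusted p of 0.05, with 1.28% higher and 2.87% lower at an unadjusted p under 0.05). DESeq2 called 33 genes higher, 0.175% of those it tested, and 22 lower, 0.117%. The counts of members come from the contrast on which they were chosen, and nothing is read from them.

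**Figure D2:**
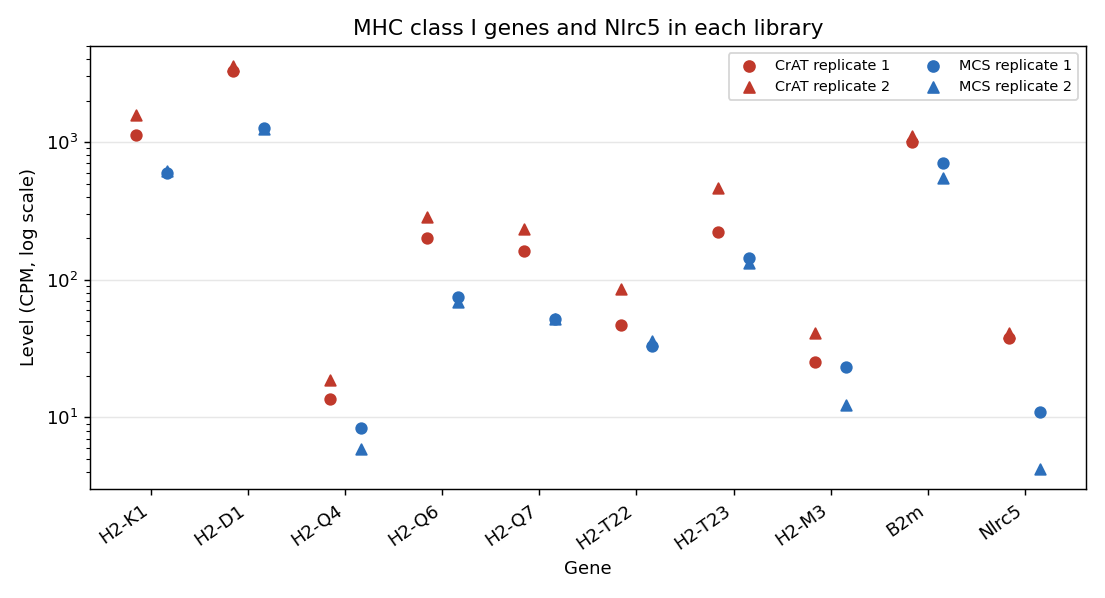
Level of each gene in each of the 4 libraries, in CPM on a log axis; circles are replicate 1 and triangles replicate 2, red CrAT and blue MCS. Each of the 10 genes has both red points above both blue points, the gap being narrowest for H2-M3 (25.3 against 23.2 CPM).

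Among the classical heavy chains, H2-D1 was the most abundant. It was at 3271 and 3572 CPM in CrAT replicates 1 and 2 and at 1265 and 1251 CPM in MCS replicates 1 and 2. Both pairs of replicates lay close together, and the log2 fold change was 1.44 (SE 0.31). H2-K1 was at 1129 and 1570 CPM in the CrAT libraries and at 600.7 and 612.3 CPM in the MCS libraries. The lower CrAT library was still 1.84-fold above the higher MCS library, and the log2 fold change was 1.15 (SE 0.33). On the FPKM scale H2-D1 ranked 21 and 17 among all genes in the CrAT libraries and 58 and 74 in the MCS libraries. The corresponding ranks of H2-K1 were 96 and 62, and 177 and 230.

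The H2-Q genes lie next to H2-D1 on chromosome 17, and H2-Q7 and H2-Q6 had the highest fold changes among the heavy chains described. H2-Q7, a heavy chain that can be anchored by a lipid tail, was at 161.9 and 233.4 CPM in CrAT, against 51.6 and 52.0 CPM in MCS. H2-Q6 was at 201.3 and 285.6 CPM in CrAT, against 75.0 and 68.7 CPM in MCS. The groups stood well apart in both genes, with log2 fold changes of 1.93 (SE 0.31) and 1.76 (SE 0.31). H2-Q4, at 13.6 and 18.8 CPM against 8.37 and 5.90 CPM, was the least abundant heavy chain of the 8 on either scale. Its log2 fold change was 1.18 (SE 0.41).

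The H2-T genes and H2-M3 showed the widest spread between the 2 CrAT libraries. H2-T23, which encodes Qa-1, a ligand of inhibitory receptors on natural killer cells, was at 223.1 and 463.7 CPM in CrAT, against 145.1 and 131.5 CPM in MCS. CrAT replicate 2 was 2.08-fold above CrAT replicate 1, and the log2 fold change of 1.31 (SE 0.41) was 0.71 without CrAT replicate 2. H2-T22 was at 46.9 and 86.4 CPM against 32.8 and 36.2 CPM, a log2 fold change of 0.95 (SE 0.37), or 0.46 without that library. H2-M3, which presents N-formylated peptides, was at 25.3 and 40.8 CPM in CrAT, against 23.2 and 12.3 CPM in MCS. CrAT replicate 1 was only 1.09-fold above MCS replicate 1. The log2 fold change of H2-M3, 0.90 (SE 0.45), was 0.53 without CrAT replicate 2, 0.51 without MCS replicate 2 and 1.43 without MCS replicate 1.

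B2m, the light chain that all of these heavy chains need for a stable surface molecule, differed least among the 10. It was at 996.5 and 1114 CPM in the CrAT libraries and at 700.1 and 553.3 CPM in the MCS libraries, a log2 fold change of 0.75 (SE 0.31). The 8 heavy chains together were at 5072 and 6271 CPM in CrAT, against 2202 and 2170 CPM in MCS. The means were 5672 ± 848 and 2186 ± 22.6 CPM (SD, n = 2 each). The ratio of the group means was 2.60 for the sum, against 1.68 for B2m. Per length, the summed heavy chains were 1.64 and 1.80 times B2m in the CrAT libraries, and 1.01 and 1.25 times B2m in the MCS libraries. The 2 groups did not overlap in this ratio, which comes from the contrast on which the genes were chosen. Among all genes tested, 15.0% were separated upward in CPM.

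Nlrc5, a protein of the NOD-like receptor family that enters the nucleus and acts on class I promoters, had the largest fold change of the 10 and the lowest level per length. It was at 37.7 and 40.8 CPM in CrAT, against 11.02 and 4.24 CPM in MCS, from 900, 1081, 274 and 117 counts. The CrAT libraries lay close together while the MCS libraries differed by more than 2-fold. The log2 fold change was 2.36 (SE 0.52), 3.21 without MCS replicate 1 and 1.84 without MCS replicate 2.

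In every one of the 10 genes CrAT replicate 2 was the highest library. It exceeded CrAT replicate 1 by 1.08-fold in Nlrc5, 1.09-fold in H2-D1 and 1.12-fold in B2m, and by 1.84-fold in H2-T22. That library also differed from CrAT replicate 1 in cell type markers. Its rod markers summed to 22430 CPM against 42290 CPM, and its amacrine cell markers to 2192 CPM against 815.3 CPM over 7 genes. The MCS replicates differed in the same sense, with 41310 and 24300 CPM of rod markers and 697.1 and 1336 CPM of amacrine markers, while their summed heavy chains were at 2202 and 2170 CPM. The part of these markers in the class I levels was not tested.

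Per length, the order of the levels changed between the groups at its top. In the MCS libraries B2m led, at 826.5 and 655.6 FPKM, followed by H2-D1 at 498.0 and 494.4 FPKM and H2-K1 at 207.6 and 212.4 FPKM. In the CrAT libraries H2-D1 was at 1230 and 1375 FPKM and B2m at 1123 and 1286 FPKM. H2-D1 was thus above B2m within each CrAT library, though the ranges over both libraries overlapped. H2-K1 was at 372.4 and 530.7 FPKM. H2-T23 (51.0 and 46.4 FPKM) was above H2-Q6 (36.5 and 33.6 FPKM) in MCS. In CrAT their ranges overlapped, at 74.9 and 159.4 FPKM for H2-T23 and 93.6 and 136.0 FPKM for H2-Q6. H2-Q7 came next in CrAT, at 36.8 and 54.3 FPKM. In MCS it was at 12.3 and 12.4 FPKM, within the range of H2-M3. H2-M3 (17.1 and 28.2 FPKM in CrAT, 16.4 and 8.70 in MCS) and H2-T22 (13.3 and 25.1 FPKM in CrAT, 9.76 and 10.8 in MCS) could not be ordered beyond their spread. H2-Q4 (5.07 and 7.20 FPKM, and 3.27 and 2.32) and Nlrc5 (4.30 and 4.77 FPKM, and 1.32 and 0.508) were lowest in both groups.

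As shares of the summed heavy chain FPKM, the classical pair dominated in every library. H2-D1 made up 66.7% and 59.4% in CrAT and 59.7% and 60.2% in MCS, so the groups overlapped. The share of H2-K1 was 20.2% and 22.9% in CrAT and 24.9% and 25.9% in MCS, lower in both CrAT libraries. H2-Q6 took 5.08% and 5.87% in CrAT against 4.38% and 4.09% in MCS, and H2-Q7 2.00% and 2.35% against 1.47% and 1.51%. These shares were higher in both CrAT libraries. The share of H2-T22 was lower in both, at 0.722% and 1.09% against 1.17% and 1.32%, and those of H2-T23, H2-M3 and H2-Q4 overlapped. Among all genes tested, 15.0% were separated upward and 16.6% downward in CPM. The shares are parts of the same sum, so they depend on each other, and nothing is read from their separations. Intervals for counting error are not given for these shares, since FPKM is not a count.

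Heavy chain genes resemble each other to differing degrees, which bears on how far a value belongs to 1 gene. Over the longest open reading frame of GENCODE M21 transcripts, identity between the 8 heavy chains ran from 76.4% (H2-M3 and H2-Q4) to 95.7% (H2-Q6 and H2-Q7). H2-T22 was 97.0% identical to H2-T10, a class I gene that is not among the 10. Of all 100-base windows in the coding transcripts of a gene, 17.2% in H2-Q7, 13.9% in H2-Q4, 13.0% in H2-Q6, 12.4% in H2-T22, 7.3% in H2-T23 and 4.1% in H2-D1 also occurred in a transcript of another gene. None did in H2-K1, H2-M3, B2m and Nlrc5. With 50-base windows the shares were 43.9% in H2-T22, 34.9% in H2-Q7, 6.9% in H2-K1 and 0.6% in H2-M3, and again 0% in B2m and Nlrc5. The partners of H2-Q7 were mainly H2-Q5 (17.4% of its 50-base windows) and H2-Q6, and that of H2-T22 was H2-T10 (37.5%).

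Before rounding, the values behind the deposited counts were not whole within 0.05 in 4 of 4 libraries for H2-Q6 and H2-T23, and in 3 of 4 for H2-Q4, H2-Q7 and H2-T22. For H2-M3 they were whole in all 4, and for Nlrc5 1 of 4 was not whole. Where only values under 20000 counts could be read, both of 2 were not whole for H2-K1 and 1 of 2 for B2m, genes that share no 100-base window with another gene. Over all genes, 41.8% to 43.2% of the values above 0 in a library were not whole within the narrower limit of 0.02. The link between such values and shared sequence was not tested, and how the authors divided reads is not known here. Sums over likely partners were therefore also taken. H2-Q6, H2-Q7 and H2-Q5 together were at 400.5 and 580.6 CPM in CrAT, against 139.2 and 132.6 CPM in MCS, a ratio of means of 3.61. H2-T22 with H2-T10 was at 49.1 and 90.1 CPM against 33.4 and 37.4 CPM, a ratio of 1.97. Both sums left the groups apart, as the single genes did.

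The remaining class I rows with an H2 name were 25 in number. Of these, 10 were listed at 0 in every library, 6 had a few counts and were not tested, and 9 were tested. All 9 had a positive log2 fold change (50.6% of all genes), 7 were separated upward (15.0% of all genes), and their median was 1.43. H2-Q5, a neighbour of H2-Q6, was at 37.2 and 61.6 CPM in CrAT, against 12.6 and 11.9 CPM in MCS, the largest log2 fold change of these 9, 2.02 (SE 0.37). H2-K2, next to H2-K1, has a pseudogene row and a noncoding row. They had the smallest, 0.30 (SE 0.35) and 0.26 (SE 0.34). These 25 rows added 62.7 to 159.2 CPM per library to the heavy chain sum of 2170 to 6271 CPM.

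**Figure D3:**
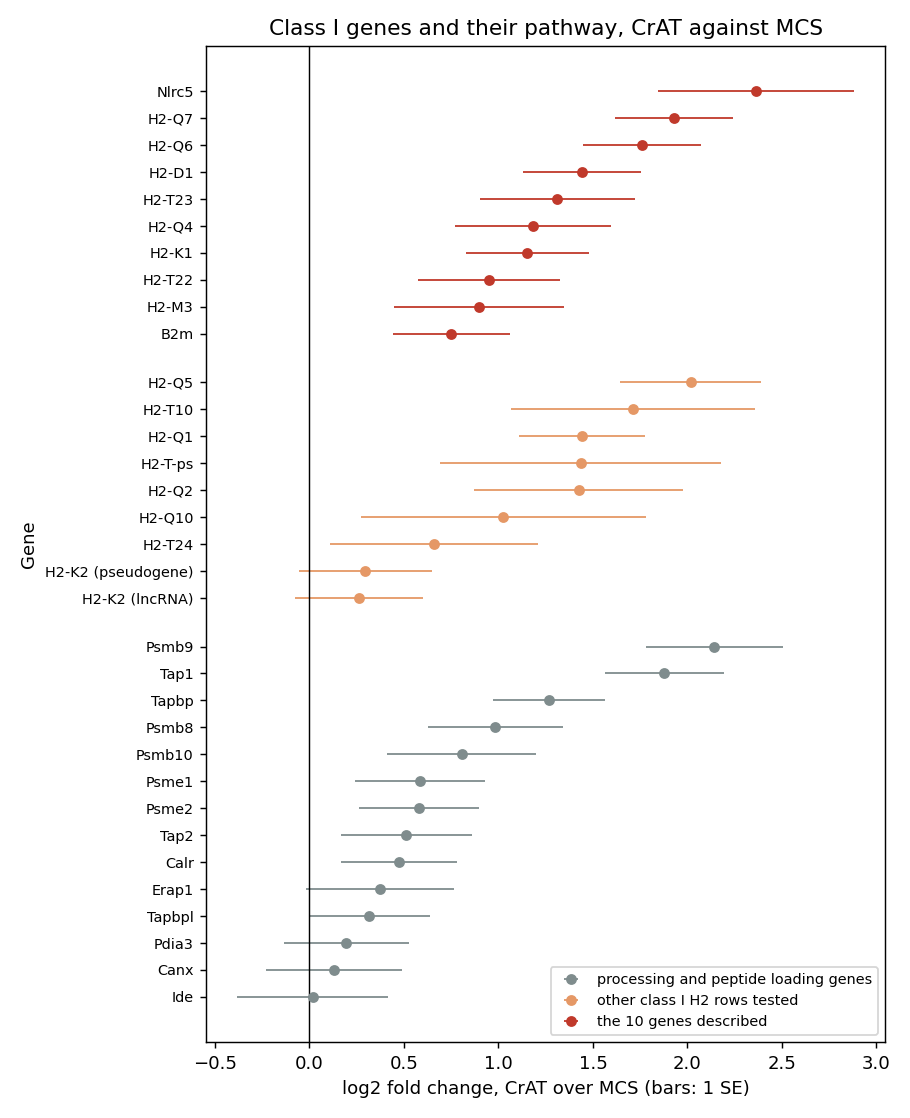
Log2 fold change of CrAT over MCS with 1 SE from the edgeR fit, for the 10 genes described, the other 9 class I rows tested and 14 processing and loading genes, each group sorted. All points lie above 0, from 0.02 for Ide to 2.36 for Nlrc5.

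The heavy chain genes lie among many other genes on chromosome 17. This allowed the region itself to be compared, in a description added after the values had been seen. Between H2-K1 and H2-M3, 87 other protein-coding genes outside the H2 names were tested. Their median log2 fold change was -0.15, with 32 positive (50.6% of all genes), 12 separated upward (15.0% of all genes) and 21 separated downward (16.6%). At least 1 was reached by 6 of them (3.87% of all genes). These were Psmb9, Tap1, the complement gene C2, and Gm8909, Gm11127 and Gm7030, predicted genes that share 50-base windows with heavy chains described here. Without Psmb8, Psmb9, Tap1 and Tap2, the median of the other 83 was -0.17. The positions in the deposited tables carry no build name and are not those of GRCm38, so only the order of the genes was used.

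**Figure D4:**
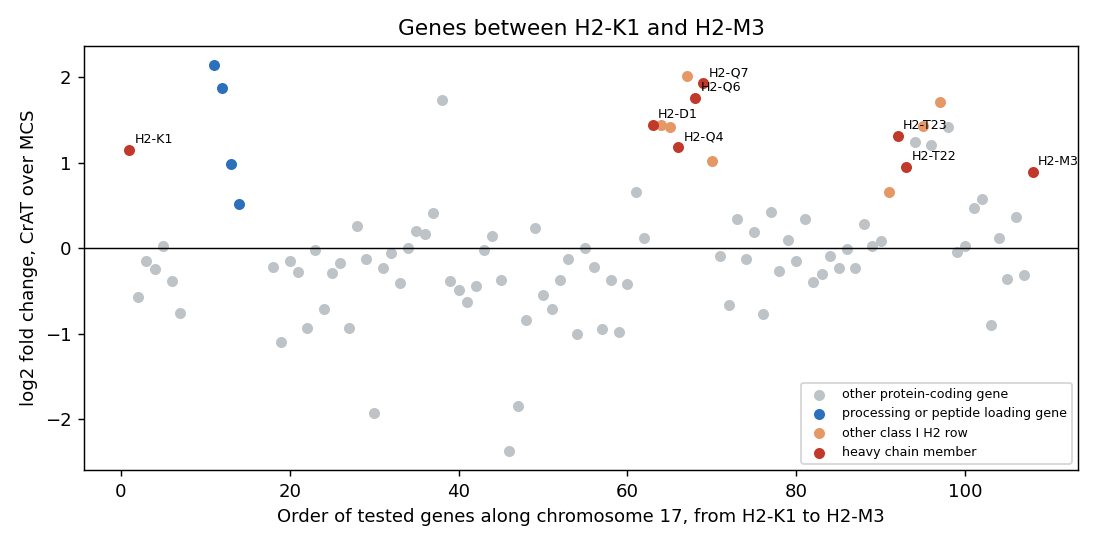
Log2 fold change of CrAT over MCS (vertical) for tested genes in their order along chromosome 17 from H2-K1 to H2-M3, with 6 class II rows left out. Heavy chains (red), other class I rows in the region (orange) and processing genes (blue) lie above 0, while the other protein-coding genes (grey) scatter around a median near 0.

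The steps that supply class I with peptide were read from a list of 14 processing and peptide loading genes. None passed edgeR's test in either direction (0 of 14, and 0% of all genes). At an unadjusted p under 0.05 in that test, 4 were higher and 0 lower, against 1.28% and 2.87% of all genes. DESeq2 called 3, against 0.175% of the genes it tested called higher and 0.117% lower. All 14 log2 fold changes were positive (50.6% of all genes), with a median of 0.55, or 0.31 without CrAT replicate 2. In 8 of them the groups were separated upward (15.0% of all genes). Psmb9, an inducible proteasome subunit, was at 91.2 and 158.3 CPM in CrAT, against 26.8 and 29.7 CPM in MCS, a log2 fold change of 2.14 (SE 0.36). Tap1, a subunit of the peptide transporter, was at 240.3 and 343.8 CPM against 80.6 and 78.4 CPM, 1.88 (SE 0.32). Tapbp, tapasin, which bridges the transporter and the heavy chain, was at 562.2 and 656.3 CPM against 268.0 and 238.1 CPM, 1.27 (SE 0.30). The general chaperones of the endoplasmic reticulum were closer together, with log2 fold changes of 0.47 (SE 0.31) for Calr and 0.13 (SE 0.36) for Canx.

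Of 15 regulators of class I transcription, none passed edgeR's test in either direction (0% of all genes). At an unadjusted p under 0.05 in that test, 5 were higher and 0 lower, against 1.28% and 2.87% of all genes. DESeq2 called 2, against 0.175% of the genes it tested called higher and 0.117% lower. The median log2 fold change was 0.11, or -0.0077 when CrAT replicate 1 was left out and 0.49 when MCS replicate 1 was. The groups were separated upward in 5 of 15 (15.0% of all genes) and downward in 2 (16.6%). Ciita, the class II counterpart of Nlrc5, had 39 and 93 counts in CrAT and 24 and 13 in MCS, a log2 fold change of 1.84 (SE 0.70). Irf9, a transcription factor of the type I interferon response, was at 240.7 and 220.0 CPM against 83.6 and 97.0 CPM, 1.35 (SE 0.28). The subunits that join Nlrc5 at the promoter were close to 0, with 0.26 (SE 0.37) for Rfx5, 0.02 (SE 0.36) for Rfxap and -0.04 (SE 0.29) for Rfxank. Nfkb1 was at 7.29 and 5.21 CPM in CrAT, against 10.1 and 15.6 CPM in MCS, -1.04 (SE 0.44).

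The list of interferon genes held 2 ligands, and other interferons were not examined. Ifnb1 and Ifng had 0 counts in all 4 libraries, which allows up to 0.122 CPM in the shallowest. Of 9 tested genes for interferon receptors and their kinases, none passed edgeR's test (0 at an unadjusted p under 0.05, 0 called by DESeq2). Positive changes were seen in 4 (50.6% of all genes), with a median over the 9 of -0.04, or 0.13 without CrAT replicate 2. Jak1, a receptor kinase, was at 269.9 and 238.1 CPM against 204.5 and 175.2 CPM, 0.42 (SE 0.28). Ifngr1, at 70.0 and 41.5 CPM against 93.2 and 56.8 CPM, had -0.43 (SE 0.40), and Ifnlr1, with 18 and 1 counts against 29 and 0, had -0.56 (SE 1.85).

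Class I-like genes outside the H2 family were read from a list of 10. Of 5 tested, none passed edgeR's test (0 at an unadjusted p under 0.05, 0 called by DESeq2). Of the 5, 1 was positive (50.6% of all genes) and 3 were separated downward (16.6% of all genes). The median was -0.54, or -0.29 without CrAT replicate 2 and -0.30 without MCS replicate 1. Cd1d1, which presents lipids, was at 15.4 and 7.36 CPM in CrAT, against 20.3 and 16.2 CPM in MCS, -0.68 (SE 0.47). Fcgrt, the neonatal Fc receptor, which also pairs with B2m, was at 31.2 and 22.6 CPM against 43.2 and 41.3 CPM, -0.65 (SE 0.32). Procr, the protein C receptor, had 29 and 17 counts against 28 and 1, 0.68 (SE 1.29). The difference between these genes and the heavy chains was not tested.

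Receptors that read class I were nearly missing. Of 10 such genes, 5 were at 0 in all libraries (Klrc1, Klrd1, Pirb, Klra1 and Cd3e) and 2 were tested, of which none passed edgeR's test (0 at an unadjusted p under 0.05, 0 called by DESeq2). Cd8a had 41 and 31 counts in CrAT and 35 and 9 in MCS, a log2 fold change of 0.74 (SE 0.84), and Trac 16 and 10 against 17 and 19, -0.39 (SE 0.77).

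Markers of other cells were read in the same libraries. T and natural killer cell markers summed to between 1.30 and 3.44 CPM over 11 genes, with Cd3e, Cd3d, Cd3g, Nkg7, Gzma, Gzmb and Klrb1c at 0 in all 4. Microglia and macrophage markers summed to 10.3 and 10.98 CPM in CrAT, against 12.6 and 16.9 CPM in MCS over 12 genes. Their common leukocyte gene Ptprc had 1 and 3 counts in CrAT and 8 and 2 in MCS. Antigen presenting cell markers summed to 517.6 and 369.4 CPM in CrAT, against 130.2 and 55.1 CPM in MCS over 8 genes, nearly all from the class II genes Cd74, H2-Aa, H2-Ab1 and H2-Eb1. Itgax, Ccr2 and Cd86, which mark the cells themselves, had 0 to 4 counts per library, and Flt3 had 8 to 119. Endothelial markers summed to 471.6 and 369.9 CPM against 859.9 and 479.7 CPM over 8 genes, mostly from Kdr and Flt1, with Cdh5 at 0. Of 6 tested, Flt1 was the 1 separated downward (16.6% of all genes). Pecam1, at 1.55 and 0.943 CPM against 0.402 and 0.543 CPM, was the 1 separated upward (15.0% of all genes). Mueller glia markers were lower in CrAT, at 5485 and 3842 CPM against 9222 and 9363 CPM over 9 genes, with 7 of 9 separated downward (16.6% of all genes). Astrocyte markers summed to 261.9 and 223.3 CPM in CrAT, against 413.7 and 318.2 CPM in MCS over 5 genes. The part of the endothelial, glial and antigen presenting cell markers in the class I levels was not tested.

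The genes whose pattern over the 4 libraries lay nearest to the summed heavy chains were sought among 12806 genes of at least 1 log2 CPM. The measure was the root mean square difference of centred log2 CPM, whose median over those genes was 0.76. The nearest was H2-Q1, a class I gene next to H2-D1, at 0.041. It was followed by Prps2, a phosphoribosyl pyrophosphate synthetase, at 0.075, Tapbp at 0.079, Srl, which encodes sarcalumenin, at 0.11 and the protocadherin gene Pcdhb15 at 0.11. H2-Q1 was at 29.9 and 36.7 CPM in CrAT, against 12.02 and 12.5 CPM in MCS. Prps2, on the X chromosome, was at 13.5 and 15.3 CPM against 6.11 and 5.43 CPM.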

How the data were processed

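RNA of 4 sorted retinal cell samples was sequenced after cDNA synthesis with a SMART-seq kit for low input, per the labels' protocols. Reads of antisense genes are not separable unless counting used strand. STAR 2.7.2b, GRCm38.p6 and mm10 are named in the submitters' processing notes. The sources used here give neither counter settings nor read length. The authors deposited estimated counts, rounded to whole numbers, and FPKM values. FPKM times length gave back the values before rounding, of which 41.8% to 43.2% of those above 0 were not whole within 0.02. Whole-read counts had been assumed when the test was planned, which did not alter it. Each table held 2 columns of samples other than these, 4 in all, which were not used.

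Genes kept by filterByExpr (19638) were fitted on the whole table with edgeR 4.0.16's quasi-likelihood test in R 4.3.3 (TMM factors 0.970 to 1.02, with no covariate, 2 residual degrees of freedom, two-sided, Benjamini-Hochberg over all genes, threshold 0.05). DESeq2 1.42.0, limma 3.58.1 on log2(FPKM + 0.1), other scalings, no filter, a replicate block and leaving out each library were alternatives. An exact permutation test of 2 against 2 was not used, since it cannot pass 0.05. On simulated counts for 18957 genes of CrAT against MCS, edgeR recovered 2% of 50 genes changed 2-fold, 52% of those changed 4-fold and 100% of those changed 16-fold or 64-fold, with 4 unchanged genes called. The spread of the simulated counts was set by a gene's mean level alone, without any effect shared by same-numbered libraries. Recovery in the real libraries may therefore be lower. Replicates differed by more than sampling noise (chi-square over degrees of freedom 77.5 in CrAT and 131.2 in MCS).

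The members and lists were chosen with earlier results of these data known. Named genes were the members, the 3 genes of each list with the largest absolute log2 fold change, H2 rows by range, and the 5 nearest patterns, and 1 regulator so named is not reported here; Calr, Canx, Rfx5, Rfxap, Rfxank, Nfkb1, Psmb8, Tap2, H2-Q5, H2-K2, C2, Gm8909, Gm11127 and Gm7030 and single marker genes were added after their values were seen.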

Additional observations from a re-analysis of the deposited data

How the results depend on the processing

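The difference of the summed heavy chains kept its direction under every alternative run. Its log2 ratio of 1.38 was 1.33 with library totals, 1.39 with RLE size factors, 1.33 on FPKM, and between 1.23 and 1.52 with 1 library left out. It was 1.81 for H2-Q4, H2-Q6 and H2-Q7 alone. The 10 genes were positive in 100 of 100 alternative fits, 10 per gene, and in 4 of these they moved by more than the spread between replicates. These genes were chosen on this contrast, and in each of them the groups did not overlap. Leaving out 1 library or changing the scaling could therefore hardly turn a sign, in the genes or in the heavy chain sum. The constant direction is a description and is not evidence for the difference. The count of called genes was 0 in both directions, also with RLE factors, with library totals, in limma on FPKM and with any 1 library left out. It was 2 higher without a filter on low counts, and 33 higher and 22 lower in DESeq2. The replicate numbers pair no samples by the labels. Deviations of same-numbered libraries had a correlation of 0.39 across genes. With the replicate number as a block the sum's log2 ratio was 1.37, 0 genes passed in either direction, and 755 higher and 1167 lower had an unadjusted p under 0.05, against 251 and 564. Medians of 3 lists near 0 changed sign when 1 library was left out. They ranged from -0.0077 to 0.49 for the regulators, from -0.13 to 0.13 for interferon receptors and from -0.21 to 0.87 for the 2 receptors of class I tested, and the cause was not tested. With 2 libraries a group, changes of 2-fold were seldom recovered in simulated data, and levels under 0.111 CPM lie below 3 counts.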
